A study of Rattus norvegicus with 29 samples.

Results

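The respiratory chain subunits described here are the nuclear genes of the mitochondrial complexes I to V and of cytochrome c, chosen by symbol from RNA sequencing of whole dorsal root ganglia, the clusters of sensory neurons and glia beside the spinal cord. Symbols of the Nduf (a, b, c, s and v), Sdh (a to d), Uqcr, Cox (4 to 8) and Atp5 series, Cyc1 and Cycs were taken, with the transcript of most reads for each gene and a mean of at least 1 CPM (counts scaled to library size, with TMM factors that adjust for library composition). This gave 74 genes of 81 matching symbols, among 16232 genes with a symbol in the files. They comprised 31 genes of complex I, 4 of complex II, 8 of complex III, cytochrome c itself, 15 of complex IV and 15 of complex V. All 74 passed the filter on low counts and were among the 12556 transcripts tested, and 73 were listed with 1 transcript only. The 7 symbols below the minimum were Atp5pb (0.589 CPM), Cox8b, Cox8c, Cox6a2, the pseudogene Cox6c-ps1, Ndufa1 and Uqcr11, and the last pair and Cox6a2 were listed at 0 in every library, which does not show that these genes are silent in the ganglion. The subunits that the mitochondrial genome encodes were not analysed here.

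The ganglia came from cervical levels C6 to C8 on the affected side of elderly Lister Hooded rats, 1 library per rat. Sham rats (the labels' word, where the series text writes naïve) had 4 libraries at week 5 and 5 at week 11. Rats given a stroke in the cortex of 1 hemisphere and then infused with vehicle, and rats given the same stroke and a subcutaneous infusion of neurotrophin-3 (NT3, a growth factor for sensory neurons), had 5 libraries at each week. The sham arm had no stroke and, as far as the labels state, no infusion, so that an effect of stroke and one of infusion cannot be told apart in comparisons with it. Neuronal genes were high as a sum in every library (the summed level of 11 neuronal markers lay between 17240 and 21170 CPM). Of these markers, Snap25 was listed at only 0.15 to 0.75 CPM. Assigned reads numbered 16703574 to 22773108 in 28 libraries and 9555685 in week 11 vehicle rat 27, which also had the highest summed level of 8 brain genes, at 900.4 CPM against 365 to 614 elsewhere. In whole tissue, fewer cells of a type and less RNA per cell cannot be told apart.

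The respiratory chain passes electrons from NADH (through complex I) and from succinate (through complex II) to complex III, on through cytochrome c to complex IV, and finally to oxygen. The proton gradient this builds drives complex V, the ATP synthase. Most subunits are encoded in the nucleus, and their genes are textbook targets of nuclear respiratory factor 1 (NRF1), of GABPA, an ETS factor, and of the estrogen-related receptors with their coactivator PGC-1alpha (Ppargc1a). Large sensory neurons with long axons rely on oxidative phosphorylation for ion pumping and axonal transport.

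Promoters of 4 members are shown because these genes moved in different ways across the libraries: Uqcrc1 fell and Uqcrc2 and Ndufs1 rose with the share of a library's reads that lay outside annotated features, and Cycs did not pass the test in either direction over all 29 libraries (values below). They are the 250 bases before the annotated start, 5′ to 3′ on the strand of the gene, from RefSeq on build GRCr8. Uqcrc1 is at chr8:118467973-118468222 (plus strand), Cycs at chr4:80984768-80985017 (minus), Ndufs1 at chr9:72073606-72073855 (minus) and Uqcrc2 at chr1:184598990-184599239 (plus). Capitals mark matches, on either strand, to the NRF1 letters GCGCATGCG in Uqcrc1 (39 to 31 bases before the start) and in Cycs (158 to 150), and to the GABPA letters CCGGAAG in Ndufs1 (199 to 193) and, at 2 places, in Uqcrc2 (117 to 111 and 28 to 22).
Uqcrc1: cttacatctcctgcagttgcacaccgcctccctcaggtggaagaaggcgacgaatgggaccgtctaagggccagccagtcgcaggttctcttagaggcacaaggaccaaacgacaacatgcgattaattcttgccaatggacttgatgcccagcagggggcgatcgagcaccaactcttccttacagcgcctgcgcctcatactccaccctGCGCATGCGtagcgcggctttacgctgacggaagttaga
Cycs: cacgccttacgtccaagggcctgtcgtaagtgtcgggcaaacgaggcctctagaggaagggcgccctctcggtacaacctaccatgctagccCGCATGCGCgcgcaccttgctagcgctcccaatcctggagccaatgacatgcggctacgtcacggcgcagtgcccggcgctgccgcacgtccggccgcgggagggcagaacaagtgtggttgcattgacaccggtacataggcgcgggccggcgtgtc
Ndufs1: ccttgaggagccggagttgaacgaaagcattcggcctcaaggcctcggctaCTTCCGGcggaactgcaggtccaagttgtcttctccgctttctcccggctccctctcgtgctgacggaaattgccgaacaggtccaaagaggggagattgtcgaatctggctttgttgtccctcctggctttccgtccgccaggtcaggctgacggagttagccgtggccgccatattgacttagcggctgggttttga
Uqcrc2: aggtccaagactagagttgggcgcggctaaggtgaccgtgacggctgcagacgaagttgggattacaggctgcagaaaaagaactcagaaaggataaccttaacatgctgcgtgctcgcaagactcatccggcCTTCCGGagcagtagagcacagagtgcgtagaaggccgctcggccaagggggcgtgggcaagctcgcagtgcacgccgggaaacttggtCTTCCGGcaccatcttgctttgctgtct

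Promoters were matched for 65 of the 74 members, and the motifs were searched on both strands in 300 bases, from 250 before to 50 after the start. The NRF1 letters were found in 7 members (Uqcrc1, Cycs, Atp5mc2, Atp5mg, Atp5po, Atp5me and Ndufa11), 10.8% of the 65, against 1.66% of all 27457 promoters and 2.89% of the 9527 promoters of tested genes. The GABPA letters were found in 20 members (30.8%), against 9.22% of all and 16.1% of tested promoters. AAGATGGCG, letters of YY1, a zinc finger factor of many mitochondrial promoters, were found in 9 members (13.8%), against 1.93% and 3.3%. TCAAGGTCA, the estrogen-related receptor letters, were found in 1 member, Sdhd, against 0.412% of all promoters. GGGCGG, for SP1, was found in 25 members (38.5%), against 34.9% of all and 59.6% of tested promoters. Each motif was searched by itself, so that matches to different motifs could overlap. The members with the NRF1 letters had a median slope on the read share of -0.058 and those without of -0.052 (log2 per percentage point). For the GABPA letters the medians were -0.056 with and -0.052 without, and for the YY1 letters -0.061 and -0.052. For the SP1 letters they were -0.052 with and -0.054 without. No test was made of these differences.

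Across the libraries the complexes went up and down together, and 2 sham rats held the top of the range. The mean log2 CPM over the 74 members was 6.95 ± 0.118 in sham (SD, n = 4), 6.86 ± 0.123 in vehicle (n = 5) and 6.89 ± 0.0539 in NT3 rats (n = 5) at week 5. At week 11 it was 7.02 ± 0.229 in sham, 6.84 ± 0.036 in vehicle and 6.81 ± 0.036 in NT3 rats (n = 5 each). Sham rats 11 and 8, both of week 11, stood at 7.35 and 7.18, above every other library (6.72 to 7.08), while the other 3 sham rats of that week stood at 6.81, 6.88 and 6.89. Rat 11 held the highest value of all 29 libraries for 54 of the 74 members and rat 8 for 15. Against the mean of the other 27 libraries, the median member was higher by 0.52 on the log2 scale in rat 11, with all 74 members above, and by 0.372 in rat 8, with 65 above.

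The same 2 libraries had the smallest share of reads outside annotated features: 21.1% in rat 8 and 21.7% in rat 11, against 24.1% to 28.6% in the other 27. Results without them stand beside most of those with all libraries below, an alternative chosen after the data were seen. Their summed neuronal markers were at 20610 and 20660 CPM, within the range of the others. Of the other 9 marker lists, those of glia, macrophages, fibroblasts, endothelium, muscle, red cells and brain also lay within the range of the other libraries in both rats, and the 6 fat markers were at 8.89 CPM in rat 11, against 3.73 to 8.24. Single neuronal markers differed: rat 8 had the highest level of Tubb3 (3868 CPM, against a mean of 2524 over all libraries), Prph (1944 against 1184), Uchl1 (2105 against 1478) and Rbfox3 (114.9 against 91.18). Rat 11 had the highest Stmn2 (2474 against 2113), and the other neuronal markers were highest in other libraries. Rat 8 also had the second highest summed level of brain genes (614.1 CPM), of which Slc17a7, also a gene of sensory neurons, at 417.5 CPM was the largest. The lowest member mean was that of week 5 vehicle rat 14 (6.72), which had the highest share outside features (28.6%) and the highest summed muscle genes (57.4 CPM, against 11.2 to 21.1 elsewhere). The part of these differences in the members' levels was not tested.

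**Figure D1:**
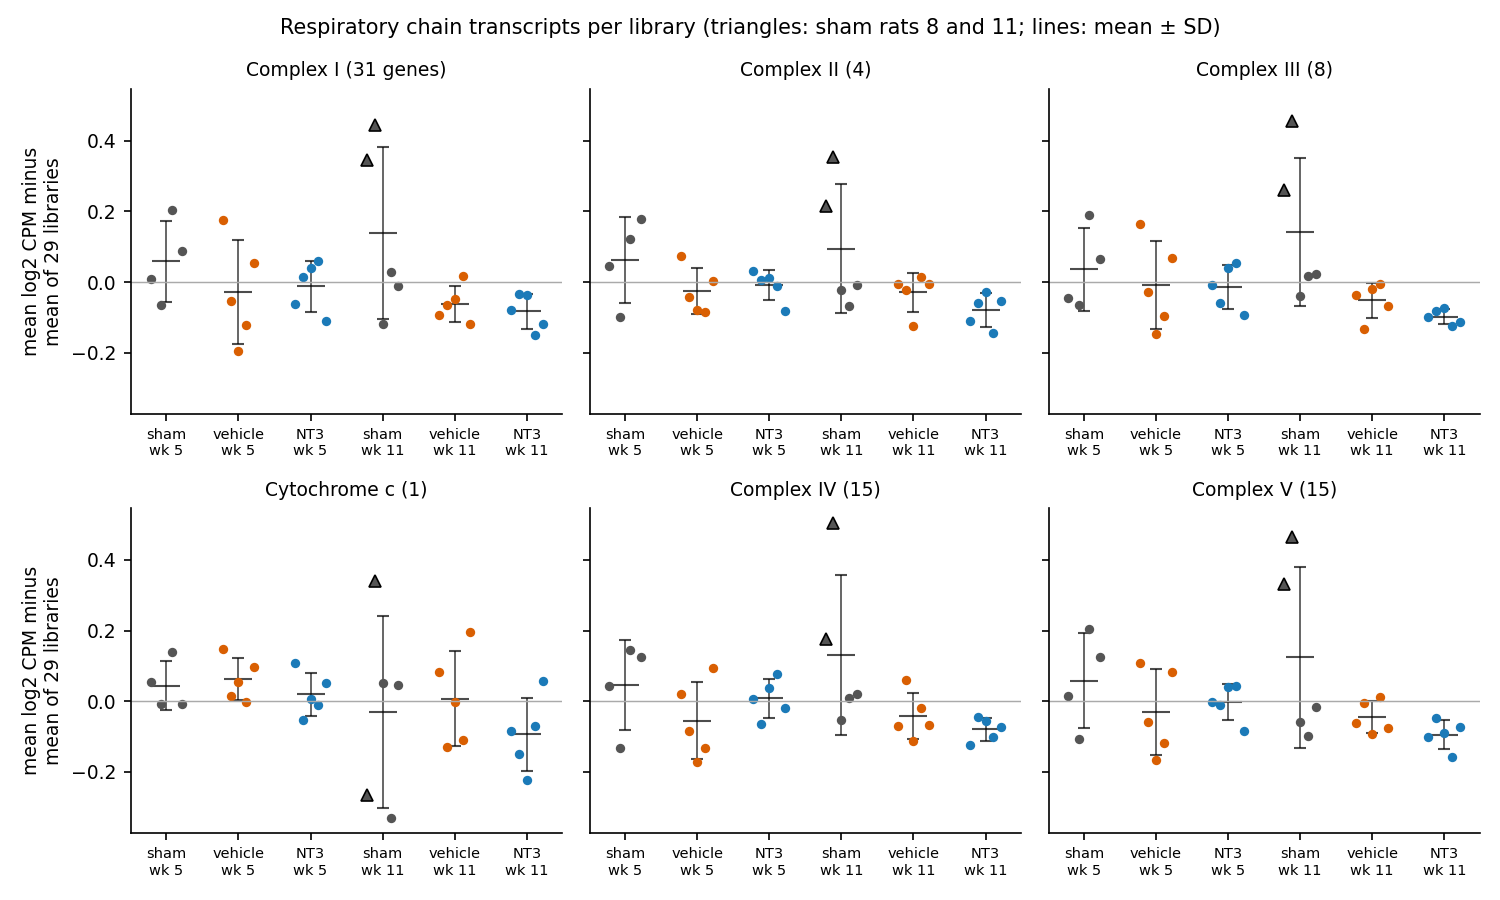
Mean log2 CPM of the members of each complex and of cytochrome c in each library, minus the mean over 29 libraries, by group; triangles are week 11 sham rats 8 and 11 and lines are the group mean ± SD (n = 4 or 5). Both triangles lie above the other week 11 sham rats for complexes I to V, and for cytochrome c rat 8 lies below the mean.

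Differences between complexes varied less over the libraries than the complexes themselves. The mean over complex I minus the mean over complex V had an SD of 0.0415 over the 29 libraries, against an SD of 0.143 for complex I and 0.14 for complex V themselves (log2 scale). For complex IV minus complex V the SD was 0.0507, and for complex III minus complex I it was 0.0413. The largest SD was 0.0671, for complex I minus complex IV, against 0.131 for complex IV itself. For complex II minus complex V it was 0.0518, against 0.107 for complex II. These complexes share no gene, and the values describe a common movement of the 5 complexes over all 29 libraries. The part of the scaling, which all complexes of a library share, was not tested. The SD of the mean over all members was 0.132 over all libraries and 0.0824 without rats 8 and 11. The movement thus rests in part on those rats, and the SDs by complex without them are not given here. Rat 8 also held an extreme of each of these differences except complex I minus complex V. Single members differed in their spread between rats. The within-group SD of log2 CPM ranged from 0.0594 for Sdha, the flavoprotein of complex II, to 0.542 for Ndufs7. Its median was 0.158 over the members against 0.218 over all tested transcripts, whose levels were not matched to those of the members.

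Uqcrc1 (NM_001004250), a core protein of complex III, was at 268, 262, 298 and 289.5 CPM in the 4 sham rats of week 5, 304, 271, 224, 243 and 279 in vehicle and 239, 275, 282, 269.7 and 244 in NT3 rats. At week 11 it was at 408, 354, 225, 281 and 258 CPM in sham, 248, 264, 259, 281 and 222 in vehicle and 271, 268, 258, 237 and 243 in NT3 rats. The first pair of week 11 sham values belongs to rats 8 and 11 and lies above every other library, and the remaining values of all 6 groups overlap. Cox4i1 (NM_017202), the common isoform of the regulatory subunit 4 of cytochrome c oxidase, was at 429.5, 397, 487 and 468 CPM in sham, 441, 421, 378, 397 and 453 in vehicle and 393, 428, 453, 435 and 400.3 in NT3 rats at week 5. Its week 11 levels were 584, 569.5, 379.9, 417 and 412 CPM in sham, 397, 437, 382, 431 and 346 in vehicle and 394, 407, 402, 373 and 399 in NT3 rats. Again rats 8 and 11 gave the highest values, and the other sham rats of week 11 lay within the range of the stroke groups.

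Sdhb (NM_001100539), the iron-sulfur subunit of complex II, showed the same order, with 160.3, 147, 181 and 173 CPM in sham, 172, 154, 147, 145 and 157 in vehicle and 163, 156, 159.6, 164 and 147 in NT3 rats at week 5. At week 11 Sdhb was at 191, 211, 148, 156 and 151 CPM in sham, 155, 166, 142, 161 and 145 in vehicle and 147, 145, 154, 136 and 146 in NT3 rats. Rats 8 and 11 gave the highest values of all libraries, and the groups overlapped otherwise. Atp5f1a (NM_023093), the alpha subunit of the catalytic F1 part of ATP synthase, was at 828, 797, 844 and 896 CPM in sham, 904, 817, 765, 779 and 838 in vehicle and 805, 817, 850.5, 795 and 770.2 in NT3 rats at week 5, and at 1069, 976, 782, 747 and 779 CPM in sham, 806, 830.1, 759, 848 and 794 in vehicle and 808, 793, 775, 748 and 762 in NT3 rats at week 11. The value of 1069 CPM was that of rat 8.

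Ndufs7 (NM_001008525), an iron-sulfur subunit of complex I near its quinone site, was among the most variable members, with a 5.31-fold range between the lowest and highest library. It was at 43.2, 54.7, 67.5 and 38.4 CPM in sham, 81.2, 50.6, 29, 44.5 and 45.1 in vehicle and 28.1, 54.1, 52.7, 55.8 and 36.2 in NT3 rats at week 5. At week 11 it was at 89.9, 61.7, 27.8, 96.4 and 47.1 CPM in sham, 30.2, 44.8, 65.2, 52.5 and 18.1 in vehicle and 57.2, 57.5, 54.9, 45.2 and 40.1 in NT3 rats. Its highest value was that of sham rat 63 and its lowest that of vehicle rat 57, so that here rats 8 and 11 did not hold the top, and all groups overlapped.

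Cytochrome c and some other members, core subunits and isoforms among them, did not share the pattern of rat 8. Against the mean of the other 27 libraries, the low isoforms Cox6b2 and Ndufa4l2 were at -0.785 and -0.248 in rat 8 (log2 scale). Cycs (NM_012839), the soluble electron carrier between complexes III and IV, was at 325, 311, 344 and 311 CPM in sham, 346, 316, 325, 312 and 334 in vehicle and 337, 302, 314, 310.4 and 324 in NT3 rats at week 5, and at 260.1, 396, 324, 249 and 323 CPM in sham, 331, 286, 312, 289.7 and 358 in vehicle and 295, 282, 268, 298 and 326 in NT3 rats at week 11. Rat 8 (260 CPM) was among the lowest and rat 11 (396 CPM) the highest of all. Uqcrc2 (NM_001006970), the partner of Uqcrc1 in the core of complex III, was at 236, 266, 269 and 245 CPM in sham, 297, 274, 302, 296 and 267 in vehicle and 318, 248, 256, 278 and 296 in NT3 rats at week 5, and at 189, 351, 339, 251 and 302 CPM in sham, 305, 259.9, 282, 238 and 316 in vehicle and 258, 223, 238, 292 and 279 in NT3 rats at week 11. Rat 8 was the lowest library and rat 11 the highest. Ndufs1 (NM_001005550), the largest iron-sulfur subunit of complex I, was at 360.2, 348, 351 and 318 CPM in sham, 351, 368, 391, 368 and 364 in vehicle and 399.6, 368, 336, 357 and 361 in NT3 rats at week 5, and at 244, 378, 392, 309 and 351 CPM in sham, 398, 316, 343, 314 and 442 in vehicle and 348, 319, 349, 358 and 367 in NT3 rats at week 11. Rat 8 was the lowest library here too, and vehicle rat 57 the highest.

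**Figure D2:**
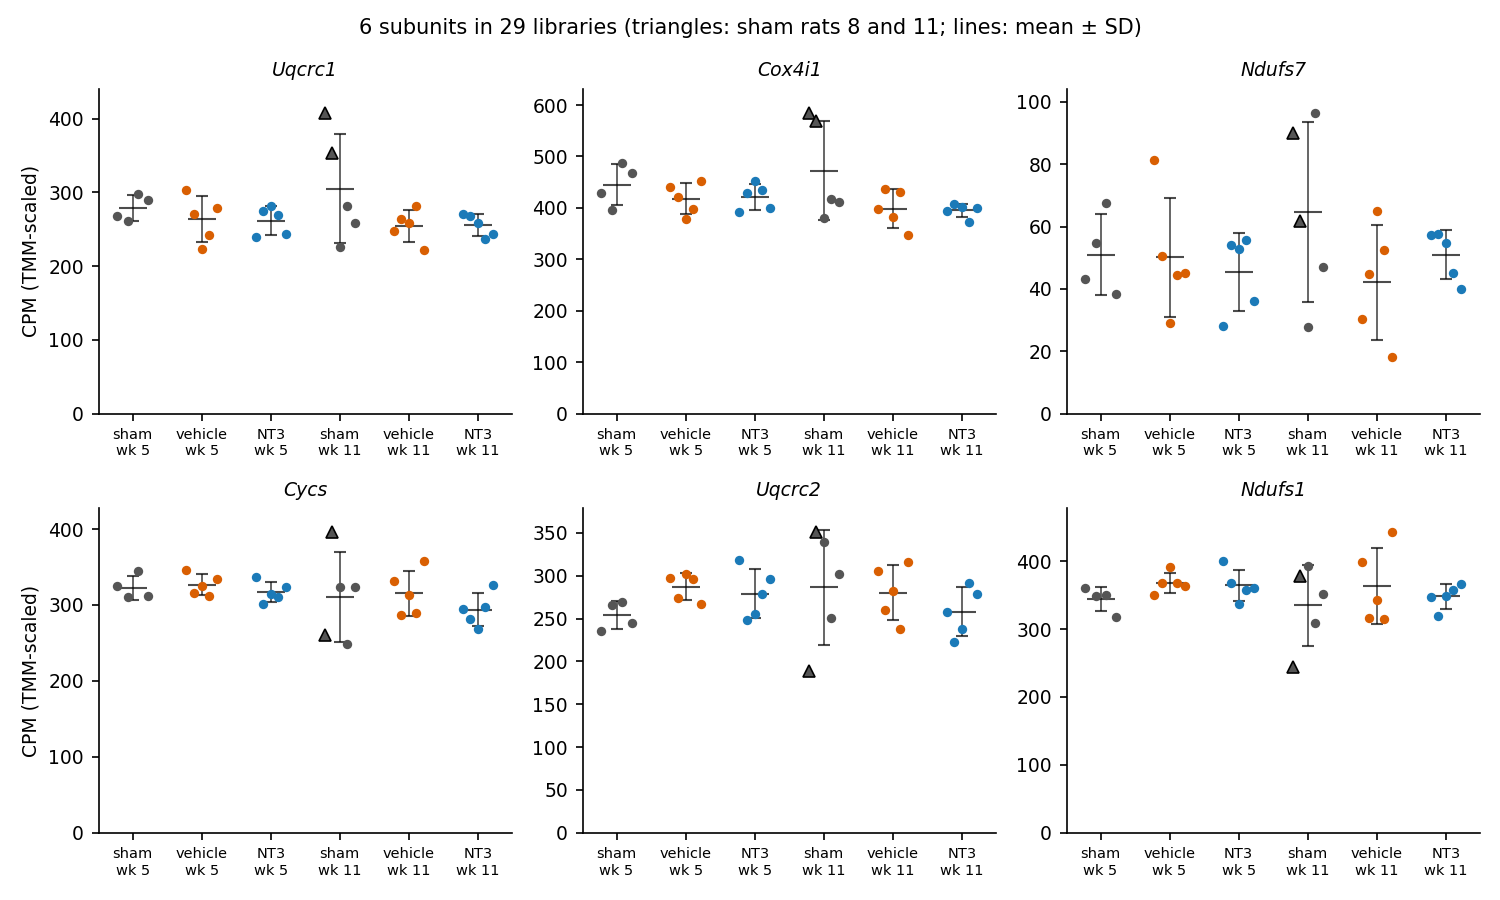
Level in CPM of 6 subunits in each of 29 libraries by group, on axes that start at 0; triangles are week 11 sham rats 8 and 11 and lines are the group mean ± SD (n = 4 or 5). Uqcrc1 and Cox4i1 are highest in both rats, while Cycs, Uqcrc2 and Ndufs1 are low in rat 8.

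The first comparison asked whether the subunits differed between stroke rats with vehicle and sham rats. With the weeks averaged, 70 of 74 members had a lower mean in vehicle than in sham rats, with a median log2 fold change of -0.14 against -0.01 over all tested transcripts, and 0 of 74 passed the adjusted threshold. Over all transcripts 0% passed in this contrast as well (edgeR quasi-likelihood test, Benjamini-Hochberg adjusted p under 0.05). DESeq2 and limma voom also called 0 members, while of all 12556 transcripts they called 4 and 36. At an unadjusted p under 0.05, 28 members were lower, against 8.86% of all transcripts. The median was -0.15 in complex I, -0.13 in complex II, -0.12 in complex III, -0.14 in complex IV and -0.13 in complex V. Without rats 8 and 11, the median over the members was -0.03 and 1 member was lower at an unadjusted p under 0.05, against 2.2% of all transcripts. With the share outside features as a covariate and all libraries, the median was -0.05.

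The member of lowest fold change was Ndufa4l2 (NM_001271272), a hypoxia-inducible relative of the complex IV subunit Ndufa4, at a level only a little above the CPM minimum. It was at 2.35, 1.82, 2.42 and 2.13 CPM in sham, 1.25, 1.18, 1.58, 1.83 and 1.56 in vehicle and 1.65, 1.41, 1.85, 2.99 and 2.31 in NT3 rats at week 5, and at 1.64, 3.22, 1.65, 3.52 and 2.65 CPM in sham, 2, 1.96, 1.61, 2.4 and 1.34 in vehicle and 1.97, 1.93, 1.98, 2.86 and 2.11 in NT3 rats at week 11. At week 5, 4 of the 5 vehicle rats lay below the lowest sham rat and the fifth just above it, and at week 11 the groups overlapped. Vehicle against sham gave a log2 fold change of -0.51 with SE 0.163 and an adjusted p of 0.27 by edgeR, and -0.52 with an adjusted p of 0.867 without rats 8 and 11. Ndufa4 itself had a log2 fold change of -0.02 with SE 0.078. The highest fold change was 0.11 in Ndufs1, and the lowest in complex I was -0.34 in Ndufb7, an accessory subunit on the side of the membrane that faces the intermembrane space, with an adjusted p of 0.302 by edgeR. In complex III the lowest was Uqcrq, a small subunit, at -0.29 with SE 0.15, and its neighbour Uqcr10 was at -0.27 with SE 0.101.

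By week, vehicle against sham gave a median of -0.09 over the members at week 5, with 1 member lower at an unadjusted p under 0.05 against 4.26% of all transcripts. For week 5, limma voom called 1079 of the 12556 transcripts at the adjusted threshold, DESeq2 called 10 and edgeR called 0. At week 11 the median was -0.18, with 29 members lower against 5.98%. Without rats 8 and 11 the week 11 median was 0.00 and 41 of 74 members had a higher mean in vehicle rats. The difference between the weeks was called for 0 of 74 members by edgeR and for 0% of all transcripts.

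NT3-treated stroke rats against sham rats gave the same picture. With the weeks averaged the median over the members was -0.16, 72 of 74 had a lower mean, and 0 passed the adjusted threshold, as did 0% of all transcripts. At an unadjusted p under 0.05, 43 members were lower, against 7.9% of all transcripts. These 43 included Ndufb11 and Ndufb10 of the membrane arm of complex I (-0.21 with SE 0.072 and -0.19 with SE 0.066, each with an adjusted p of 0.461 by edgeR) and Cyc1, the heme-bearing cytochrome of complex III (-0.19 with SE 0.065). Sdhb was at -0.15, Cox4i1 at -0.17 and Atp5f1a at -0.11, and Cycs was at -0.05. At week 5 the median was -0.07, with 0 members lower at an unadjusted p under 0.05 (1.07% of all transcripts), and at week 11 it was -0.25, with 53 lower (6.84%). Without rats 8 and 11 the averaged median was -0.04, with 0 members lower at an unadjusted p under 0.05 (0.381% of all transcripts), and the week 11 median was -0.05. This comparison shares its sham libraries with the one before.

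NT3 against vehicle, which asks what the growth factor adds after stroke, gave values near 0. With the weeks averaged the median over the members was -0.02, 18 of 74 had a higher mean in NT3 rats, and 0 passed the adjusted threshold by edgeR, DESeq2 or limma voom (0% of all transcripts by edgeR). At an unadjusted p under 0.05, 2 members differed, against 3.31% of all transcripts: Ndufa4l2 (0.34 with SE 0.16) and Cox6b2, the testis-type isoform of subunit 6b (0.33 with SE 0.157), both higher in NT3 rats and both below 4 CPM in every library. These 2 members were fewer for their number than that share of all transcripts. Among the broadly expressed isoforms, Cox6b1 was at -0.02 with SE 0.077 and Ndufa4 at -0.09 with SE 0.076. Cox4i1 had a log2 fold change of 0.00 with SE 0.068, and Sdha, with the smallest spread, of -0.02 with SE 0.0325. The median was 0.02 at week 5 and -0.07 at week 11, and the difference between the weeks was called for 0 members by edgeR.

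**Figure D3:**
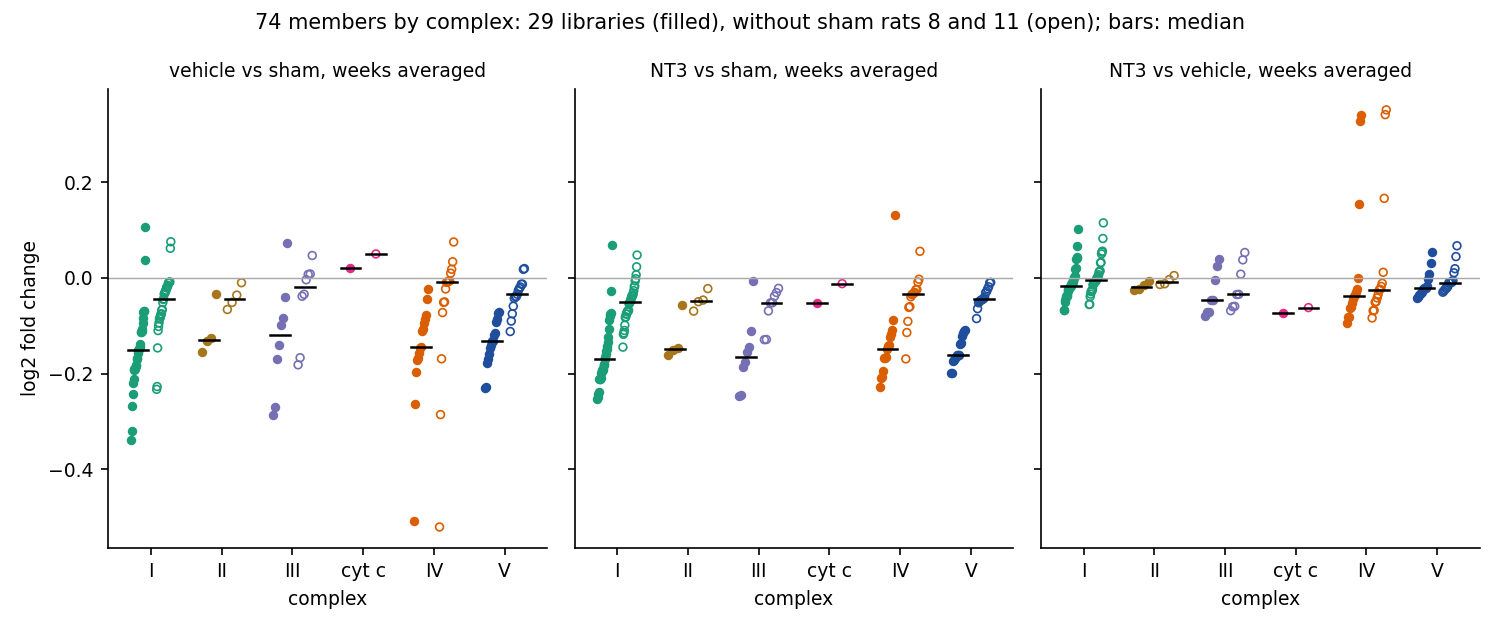
Log2 fold change of each of the 74 members by complex in 3 comparisons of arms with the weeks averaged; filled points are from all 29 libraries, open points are from the fit without week 11 sham rats 8 and 11, and bars are medians. In both comparisons with sham the open medians of complexes I to V lie nearer to 0, with a median over all 74 members of -0.03 for vehicle and -0.04 for NT3.

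Between week 5 and week 11 no member passed the adjusted threshold by edgeR in any of the 3 arms, and 0 had an unadjusted p under 0.05. In sham rats 67 of 74 members had a higher mean at week 11 (median 0.09), and without rats 8 and 11 the direction turned, with 10 of 74 higher and a median of -0.10. In that reduced fit 7 members were lower at an unadjusted p under 0.05, against 5.53% of all transcripts, and 2 were higher, against 8.66%. Limma voom with quality weights, which gives less weight to libraries that stand apart, called 2 of the 74 members in the sham arm, fewer for their number than the 17.6% of all transcripts it called there: Ndufa10, a subunit of the complex I membrane arm, at -0.16 with an adjusted p of 0.0143, and Uqcrc2 at 0.28 with an adjusted p of 0.0242. They were named after their values were seen. In vehicle rats the median was -0.01, with 0 members among the 0.844% of transcripts called, and in NT3 rats it was -0.10, with 67 of 74 members at a lower mean at week 11 and 0% of transcripts called.

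Within groups, with all 29 libraries and less so without rats 8 and 11 (below), most members fell as the share outside features rose. This share, in percent of all reads listed per library, was fitted beside 6 group means, and the slope is the log2 change per percentage point. Of the 74 members, 60 passed the adjusted threshold by edgeR, against 58.9% of all transcripts. By direction, 58 members fell as the share rose, against 28.7% of all transcripts, and 2 rose, against 30.2%. The median slope was -0.05 over the members and -0.01 over all transcripts. With the share taken of assigned plus outside reads, an alternative chosen after the data were seen, the median was -0.03 over the members and 0.00 over all transcripts, and 50 members passed (49 lower and 1 higher) against 51.3% of all transcripts. Week 11 vehicle rat 27, with 37.2% of its reads not unique, had a share of 24.1% on the first denominator, the lowest of the 27 libraries other than rats 8 and 11, and of 41% on the second, the highest of all 29. In complex I 27 of 31 fell, in complex II 4 of 4, in complex III 5 of 8, in complex IV 9 of 15 and in complex V 13 of 15.

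The smallest adjusted p values were those of Uqcrc1, with a slope of -0.09 (SE 0.0101, adjusted p = 5.19e-08 by edgeR), of Cox4i1, with -0.07 (SE 0.00941, 2.92e-07), and of Atp5f1a, with -0.06 (SE 0.00727, 4.4e-07). The steepest slopes were -0.15 for Ndufs7 (adjusted p = 0.0159 by edgeR, which was 0.0649 without week 11 sham rat 54), -0.13 for Atp5f1d, the delta subunit of the rotor stalk of ATP synthase, and -0.12 for Ndufb7. Ndufv1, which carries the flavin that takes electrons from NADH, fell by 0.09, Atp5mc2, one of the genes of the ring subunit c, by 0.09, and Atp5if1, the inhibitor of ATP hydrolysis, by 0.07. Of the isoforms, Cox6a1, Cox6b1, Cox8a, Cox7a2l and Atp5mc1 fell as well, with slopes between -0.08 and -0.06, while Cox7a2, Ndufa4, Ndufa4l2 and Cox6b2 did not pass. Cox4i2, the isoform of subunit 4 known from lung, was at -0.08 and fell with all libraries (adjusted p = 0.0129 by edgeR).

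The 2 members that rose with the share were Ndufs1, with a slope of 0.06 (SE 0.0142, adjusted p = 0.00172 by edgeR), and Uqcrc2, with 0.06 (SE 0.0186, adjusted p = 0.0119 by edgeR). The call of Uqcrc2 was lost without rat 8 (adjusted p = 0.125 by edgeR) and both were lost without rats 8 and 27 (0.0938 and 0.216). Cycs, with 0.01, and the complex I subunit Ndufs4, with 0.02, did not pass with all libraries. Uqcrc1 and Uqcrc2, which together form the core of complex III, had slopes of opposite sign.

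Without rats 8 and 11, which hold the extreme of the share, 31 of 74 members passed, fewer for their number than the 51.2% of all transcripts. Of these 26 fell (22.1% of all transcripts) and 5 rose (29.1%), and 28 members passed in both fits, 26 of them lower and 2 higher. The median slope over the members was then -0.02, with 54 members below 0 and 20 above. Uqcrc1 was at -0.07 (adjusted p = 6.68e-05 by edgeR), Ndufs7 at -0.20 (0.0176) and Cox4i1 at -0.05 (0.00171), and Cox5a turned from -0.04 to 0.00 (adjusted p = 0.872 by edgeR). Those that rose were Uqcrc2, with 0.08 (adjusted p = 9.57e-05 by edgeR), Ndufs1, with 0.08 (3.05e-05), Ndufs4 (0.06), Cox7b (0.05) and Cycs (0.05).

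**Figure D4:**
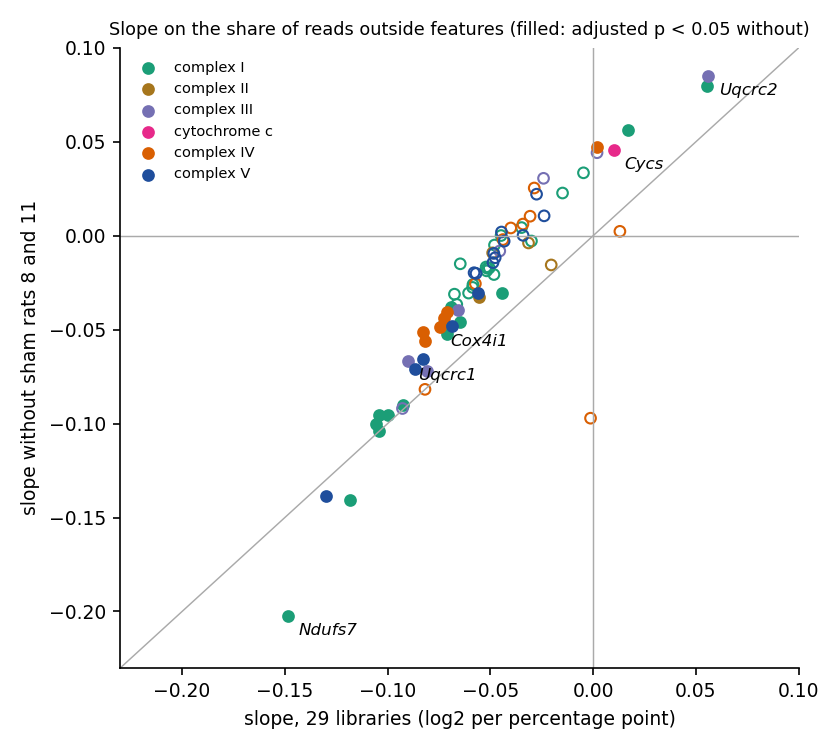
Slope of each of the 74 members on the share outside annotated features (log2 per percentage point, within groups), with all 29 libraries on the horizontal axis and without week 11 sham rats 8 and 11 on the vertical axis; filled points passed an adjusted p of 0.05 in the latter fit and the diagonal marks equal slopes. Most points between -0.08 and 0 lie above the diagonal, and Ndufs7 lies lowest at -0.15 and -0.20.

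The share itself did not differ detectably between groups. It was 25.9% ± 0.909 in sham, 27.1% ± 1.33 in vehicle and 27% ± 1.21 in NT3 rats at week 5 and 24.7% ± 3.1, 26.3% ± 1.79 and 26.7% ± 1.4 at week 11 (SD, n = 4 or 5). In 9 comparisons by exact permutation test, two-sided, the smallest p was 0.143 and the adjusted p values lay between 0.643 and 0.849, where the smallest p that 252 regroupings allow is 0.00794. The week 11 sham mean was lower than the vehicle mean by 1.55 percentage points.

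**Figure D5:**
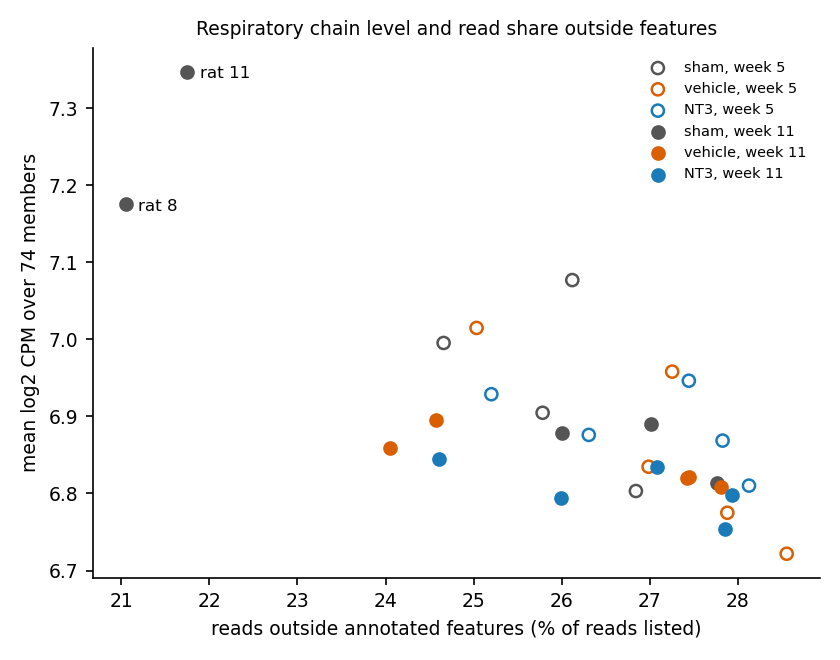
Mean log2 CPM over the 74 members against the share outside annotated features, 1 point per library, coloured by arm, with open points for week 5 and filled points for week 11. Rats 8 and 11 lie apart at shares of 21.1% and 21.7% and the highest means, and the other 27 libraries lie between 24.1% and 28.6%.

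Counts of other gene lists are to be read against the 28.7% of all transcripts that fell with the share and the 30.2% that rose. Of 76 cytosolic ribosomal proteins 61 fell and 0 rose (median slope -0.06), with Rpl6 at -0.07 and Rpsa at -0.10. Of 64 mitochondrial ribosomal proteins, which translate the subunits encoded in the organelle, 41 fell and 1 rose, with Mrpl10 at -0.07. Of 16 enzymes of glycolysis 13 fell, with Gpi at -0.08 and Gapdh at -0.06. Of 38 assembly factors of the complexes 10 fell and 9 rose, near those shares of all transcripts, with Ecsit, a complex I assembly factor, at -0.08 and Coa5, one for complex IV, at 0.08. Of 19 genes of the citric acid cycle and pyruvate dehydrogenase 9 fell and 4 rose, with Mdh2 at -0.06 and Dlat at 0.08. Of 20 genes of protein import 12 fell and 3 rose, with Tomm40 at -0.10 and Tomm70 at 0.18, of 7 carriers and porins 4 fell and 1 rose, with Ucp2 at -0.11, and of 9 antioxidant enzymes 6 fell and 2 rose, with Txn2 at -0.08 and Sod2 at 0.07. Of 11 genes of fission, fusion and cristae 4 fell and 4 rose, with the fusion GTPases Mfn1 at 0.17 and Opa1 at 0.13.

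Of 17 regulators of mitochondrial gene expression, 6 rose with the share, near the 30.2% of all transcripts that rose, and 2 fell, against 28.7%. A difference between regulators and subunits was not tested. Ppargc1a rose by 0.32 per percentage point (SE 0.0343, adjusted p = 2.82e-08 by edgeR) and Gabpa by 0.27 (SE 0.0302, 4.42e-08). Esrra, the estrogen-related receptor alpha, fell by 0.10 (adjusted p = 0.0062 by edgeR), and Nrf1 (-0.03) and Tfam (0.01), the packaging factor of mitochondrial DNA, did not pass. Ppargc1a was at 4.61 CPM in rat 8 and 12.9 in rat 11, against 6.96 to 29.3 in the other 27 libraries, and Gabpa was at 15.7 and 40.7 CPM, against 22.2 to 65. Without rats 8 and 11 the slopes were 0.39 for Ppargc1a and 0.36 for Gabpa. None of the 5 passed the adjusted threshold between arms with the weeks averaged: Ppargc1a was at 0.55 with SE 0.273 in vehicle against sham (adjusted p = 0.303 by edgeR), and Nrf1 was at -0.06 with SE 0.0671.

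For vehicle against sham, both weeks averaged and all 29 libraries, the median log2 fold change was -0.12 for cytosolic and -0.12 for mitochondrial ribosomal proteins. It was -0.11 for protein import and -0.08 for glycolysis, beside -0.14 for the members, and 0 genes of these lists passed the adjusted threshold by edgeR. Of the marker lists, macrophages had a median of -0.17 (11 of 11 lower), fibroblasts of -0.19 (7 of 7 lower) and neurons of -0.01, with 0 called. The medians of the other marker lists are not given here. The part of cell types in the members' values was not tested. Without rats 8 and 11 the median over the members was -0.03, and the medians of these lists and markers in that fit are not given here. Without rats 8 and 11, 32 of the 76 cytosolic ribosomal proteins fell with the share and 1 rose, and 16 of the 64 mitochondrial ribosomal proteins fell and 5 rose.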

How the data were processed

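RNA of 29 rats (1 library each; RNA integrity above 7.6, mean 8, per the labels' protocols) was enriched for poly-A and sequenced as stranded libraries. The authors deposited counts of reads per RefSeq transcript, whole numbers without normalization and with duplicates removed per the file names, of 18092 transcripts and of reads outside features, per the file headers and labels. The submitters' processing notes name bcl2fastq 1.8.4, TopHat2, Picard, HTSeq and the build rn6 (Rnor_6.0); whether counting used strand is not given in the sources used here. A smaller table held identical values (443932 of 443932 compared) and was not used. Symbols came from a RefSeq table of a later assembly, GRCr8, used for names only (17082 of 18092 transcripts matched, the rest held 4.58% of counts), and promoters from RefSeq on GRCr8.

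edgeR 4.0.16 in R 4.3.3 was run on the counts: filterByExpr on 6 groups (minimum count 10, total 15), TMM factors of 0.974 to 1.06, robust quasi-likelihood fits of 6 group means, two-sided, Benjamini-Hochberg adjusted over 12556 transcripts within each of 14 contrasts and for the slope on the share (threshold 0.05); the coefficient of biological variation came to 0.185. Log2 CPM used a prior count of 2. Each library is another rat, and no samples were paired. DESeq2 1.42.0, limma 3.58.1 voom, other scaling, filters, fits and libraries were alternatives. Fits without rats 8 and 11, and slopes on another denominator, were added after seeing the data. The procedure was tested on simulated data with counts drawn independently for each transcript. Libraries with most members shifted together, as in rats 8 and 11, were not covered by it.

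The members, lists and tests were chosen with earlier results of these data known. Named genes were a fixed set of core subunits and isoforms, per complex the highest and lowest values, called members of smallest p, up to 2 genes per list and 5 regulators, not all of which are printed. Ndufs4, Cox7b, the genes of the marker lists and the members holding motifs were chosen after their values were seen.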

Additional observations from a re-analysis of the deposited data

Results flagged for a closer look

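In 102 groups of 4 or 5 libraries checked for a value far from the rest (complex means, the share outside features and 10 members), 2 values stood apart, where chance alone gives about 1 in 20. The complex II mean of week 11 vehicle rat 33 was 7.435 log2 CPM, against 7.536 to 7.574 in the other 4 rats of its group. Ndufa4l2 in week 11 NT3 rat 83 was at 2.858 CPM, against 1.927 to 2.113 in the other 4. With 2 libraries high in 1 group of 5, rats 8 and 11 were not found by this check, which looks for a single library.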

How the results depend on the processing

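With DESeq2, other size factors, no filter, summed transcripts, only the groups of a contrast, without rats 8 and 27 or without any 1 library, 0 members were called in each of the 14 contrasts, and the median kept within 0.121, the within-group SD of the member mean on the log2 scale. Exceptions were limma voom, with 2 members called for sham week 11 against 5 (17.6% of all transcripts) and medians of -0.044 for that contrast, -0.039 for vehicle against sham and -0.118 for NT3 against sham at week 11, and 0.048 for the difference between weeks of vehicle against sham; and the share as a covariate, with -0.132 for NT3 against sham at week 11. Without rats 8 and 11 those medians were -0.099, 0.0032, -0.046 and 0.080. The limit of 0.121 is close in size to the averaged medians against sham, -0.14 for vehicle and -0.16 for NT3. Keeping within it therefore does not show that these medians were stable. The vehicle median of -0.03 without rats 8 and 11 also lies within that limit of -0.14. Members called for the slope numbered 60 (58.9% of all transcripts), and 50 to 65 elsewhere, but 31 without rats 8 and 11 (51.2%), with a median of -0.020. Elsewhere 6439 to 7953 of all transcripts were called, of 12493 to 15661 tested. The median over the members was -0.066 without the filter and -0.030 with the share taken of assigned plus outside reads. Cox5a turned to 0.0041 without rats 8 and 11. Leaving out 1 library gave 54 to 61 members called and medians of -0.06 to -0.04, and the share of all transcripts in these fits is not given here. The cause of these shifts was not tested. The number of members was 74 under plain CPM and with summed transcripts. No paired analysis was possible because each rat number belongs to 1 library. Groups of 4 or 5 rats limit what can be detected, and members near 1 CPM rest on few reads.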
